A study of Mus musculus with 42 samples.

Results

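The complement system genes described here are 33 genes taken by symbol, not by a measured value, from the 40701 gene symbols of the count table, and all 33 have a row. They were followed in the renal cortex of mice with an obstructed ureter. Kidneys came from day 5 (D5UUO) or day 10 (D10UUO) of unilateral ureteral obstruction or from the contralateral side (CLK), the control, whose day the labels do not give. Every mouse was 12 weeks old. Each kidney state has a proximal tubule fraction (PT) and a Total kidney fraction (Total), each with 4 male and 3 female libraries, which makes 12 groups and 42 libraries. PT is the RNA held by anti-GFP beads, that is, messages on GFP-tagged ribosomes (translating ribosome affinity purification). The labels name neither the strain nor the promoter that drives the tag. They do not say whether Total is the unbound part of the same extract, or whether libraries came from separate animals. The p-values therefore measure the spread between these libraries, which may be technical.

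Complement is a cascade of plasma proteases and binding proteins that tags cells and particles for removal. The classical pathway starts when C1q binds its target, its partner protease C1r activates C1s, and C1s cuts C4 and C2. The lectin pathway reaches C4 and C2 through mannose-binding lectins and MASP proteases, and the alternative pathway amplifies C3 cleavage with factor B, factor D and properdin. All routes meet at the cleavage of C3, after which C5 to C9 can build the membrane attack complex, while factor I, clusterin, C1 inhibitor and the surface proteins CD55, CD46, Crry and CD59 restrain the cascade. The liver makes most plasma complement, macrophages make C1q, and kidney tubule cells are known to make C3. The comparisons below ask which components are found on ribosomes of the tubule and which of them change with obstruction.

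Total counts per library ran from 9307188 to 43640760. Levels are CPM (counts scaled to library size, with composition factors), given as lowest, median and highest of the 7 libraries of a state and fraction, and levels of different genes are compared only as RPKM, reads per kilobase scaled by depth. Differences are log2 fold changes ± standard error with the sexes averaged at equal weight. The words rose, fell and differed are used for a change of at least 2-fold with an adjusted p under 0.05 in edgeR's quasi-likelihood test. The standard error was derived from the test statistic and is approximate. The level of the gene Lars2 separated libraries within both fractions, from 1714 to 43618 CPM, and was tried as a covariate. The 12 proximal tubule markers of the fractions (Miox, Slc34a1 and Slc27a2 the most abundant) summed to 14681 to 23966 CPM in PT of CLK kidneys and to 9891 to 11618 in Total. All 12 fell in both fractions at both days. All 10 endothelial markers were lower in PT than in Total in every state. In such tissue libraries fewer cells of a type and less RNA per cell cannot be told apart.

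By their PT over Total difference, some complement genes lay in or above the range of tubule markers and others were far higher in Total. Of the 33 genes 31 passed the low-count filter over all libraries, and Masp2 and Vtn did not. In CLK kidneys 1 of the 31 was higher in PT (Cfb) and 14 were lower, where 1.16% of the 17110 genes tested were higher and 22.9% lower. At day 5, 4 were higher (C2, C4b, Cfb and Cfi) and 15 lower, against 4.02% and 23.8% of all genes. At day 10, 3 were higher (C2, Cfb and Cfi) and 14 lower, against 7.07% and 23% of all genes. The median PT over Total difference of the 31 genes was -1.78 in CLK, -1.11 at day 5 and -0.17 at day 10, where that of all genes was -0.07, 0.01 and 0.05. With library size as the only scaling the share of higher genes among all genes called at day 10 went from 23.5% to 10.6%, and the counts of complement genes called there were again 3 and 14. In CLK that share went from 4.8% to 0.613% and at day 5 from 14.4% to 4.73%, and the complement genes higher in PT went from 1 to 0 and from 4 to 2.

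The 21 genes whose mean reached 5 CPM in some state and fraction are described one by one, and their PT over Total differences were set beside those of the markers. The 12 tubule markers spanned -0.57 to 0.99 in CLK, -0.13 to 1.36 at day 5 and 0.04 to 2.02 at day 10. The 10 endothelial markers spanned -4.84 to -3.69, -4.23 to -3.31 and -4.22 to -2.93. In all 3 states 9 genes lay at or above the lowest tubule marker: C1ra, C1rl, C2, C3, C4b, Cfb, Cfi, Cr1l and C8g. Cd59a joined them at day 10 (0.08 ± 0.25). The median of all genes tested (-0.07, 0.01 and 0.05) also lay above the lowest tubule marker in each state. Most genes tested therefore lay there too, and this position alone does not mark a tubule gene. At or below the highest endothelial marker in all states were C1qb, Cfp, C5ar1, C3ar1, Serping1 and C7. The others lay between or moved. Cd55 was under the tubule range in each state (-0.67 ± 0.27, -0.72 ± 0.27 and -0.63 ± 0.26). C1s1 and Clu left the endothelial range as described below. This sorting is a description with no test.

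**Figure D1:**
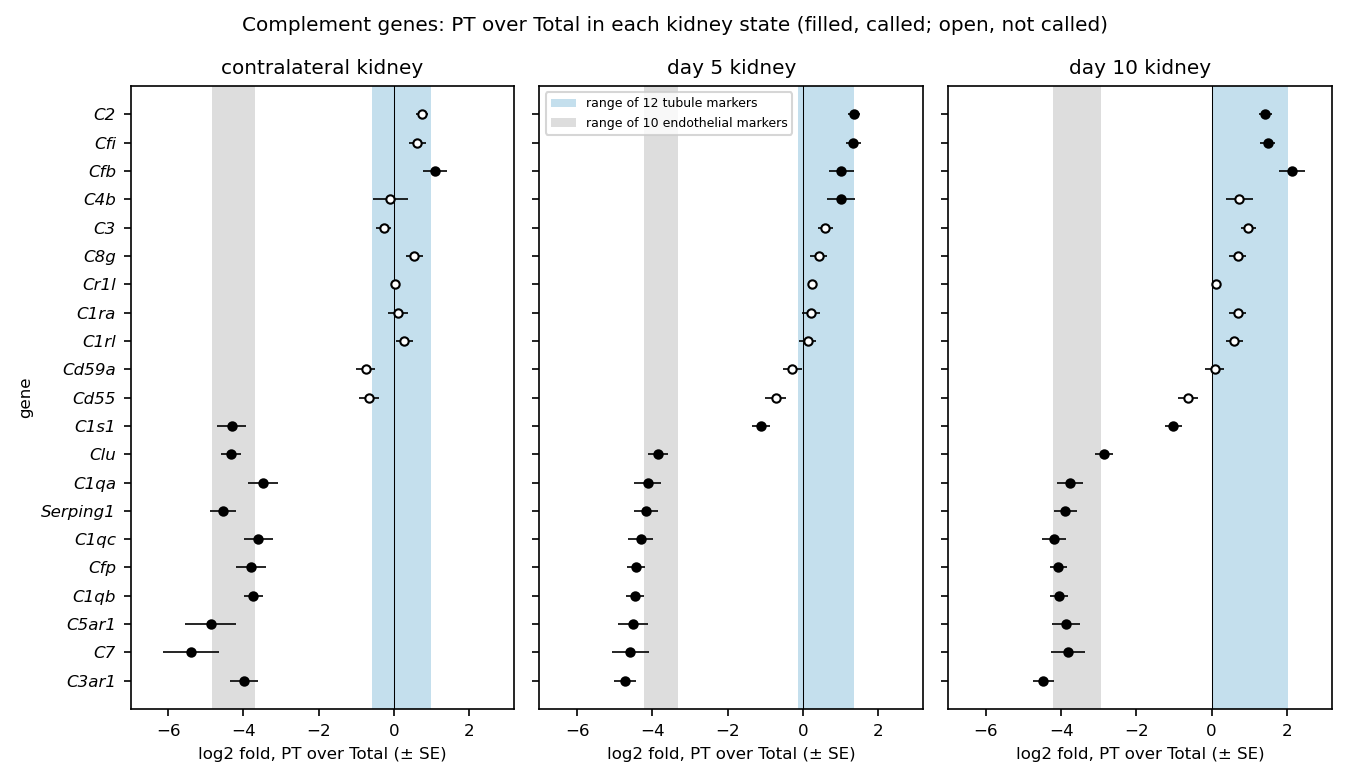
Log2 fold of PT over Total (x axis, ± SE) for the 21 described complement genes (y axis) in contralateral, day 5 and day 10 kidneys. Blue bands span 12 proximal tubule markers and grey bands 10 endothelial markers; filled points passed the test and the 2-fold minimum. C2, Cfi and Cfb stand at the right in each panel and the C1q genes at the left, while C1s1 moves from -4.32 in contralateral kidneys to -1.11 and -1.02; C5ar1 and C7 rest on 3 and 2 counts in PT of contralateral kidneys.

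Per gene length, the tubule fraction went from a profile led by surface regulators and a C8 chain to one led by C3. In PT of CLK kidneys the highest mean RPKM were those of Cd59a (15.8), Cr1l (11.2), C8g (9.18), C1rl (6.01) and Cfb (4.17), and C3 stood at 1.18. At day 5 the order was C3 (133), Clu (51.2), Cfi (32.8), Cd59a (20.6) and Cr1l (18.9). At day 10 C3 (107) and Clu (66.5) led again, followed by Cd59a (29.3), Cfi (25.3) and Cr1l (16.4). Between neighbours the ranges often overlapped: in CLK the 7 libraries spanned 5.38 to 25.6 RPKM for Cd59a and 9.91 to 13.2 for Cr1l. The lowest C3 library at day 5 (95.9) lay above the highest Clu library (81.2). In Total at day 5 the order was another, with Clu (895), C1qb (226), C1qa (116), C3 (105) and Serping1 (62.4) at the top. In PT over Total, Clu lay at or below the highest endothelial marker in CLK and at day 5, and between the marker ranges at day 10. The part of other cells in its PT level was not tested.

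**Figure D2:**
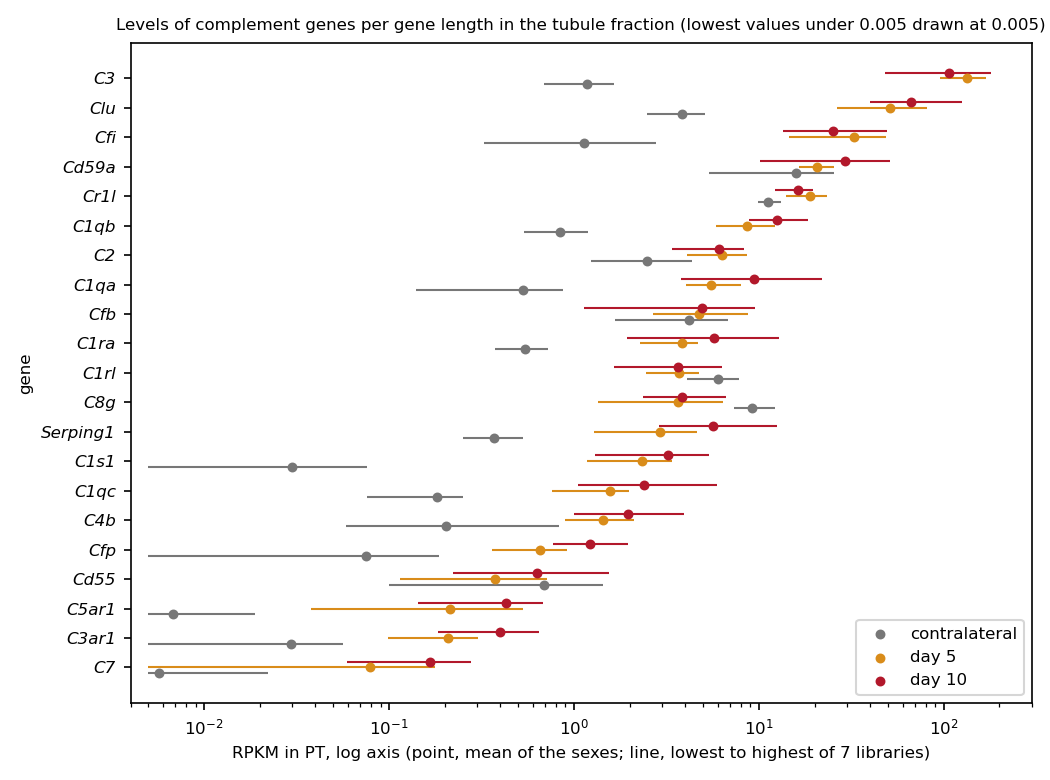
RPKM in PT (x axis, log scale) of the 21 described complement genes (y axis, ordered by day 5), with the mean of the sexes as a point and the range of 7 libraries as a line. C3, Cfi and Clu move from between 1.14 and 3.83 in contralateral kidneys to the top of the order at day 5. Cd59a and Cr1l stay between 11.2 and 29.3, and at day 10 Cd59a (29.3) stands above Cfi (25.3).

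With obstruction, most complement genes that could be tested rose in PT. At day 5, 17 of 26 tested genes rose and 3 fell (C1rl, C8g and C4a), where 18.2% of the 14932 genes tested rose and 12.4% fell. At day 10, 17 rose and 2 fell (C1rl and C8g), against 19.7% and 12% of all genes. Among those that rose on both days were C1qa, C1qb, C1qc, Cfp, C5ar1, C3ar1, Serping1 and C7. After obstruction their PT over Total differences lay at or below the highest endothelial marker, and the part of other cells in these rises was not tested. The 7 genes not tested in PT were C5ar2, C6, Cd46, Cfd, Cr2, Masp2 and Vtn, all low there, and a gene that passed the filter only through its high state had to differ, so the counts are a description. The median change of the 26 was 2.74 at day 5 and 3.38 at day 10. With bounds for genes with no counts on a side it was 2.56 and 3.29. The median of all genes was 0.05 on both days. In Total 19 of 30 tested genes rose at day 5 and 4 fell, against 19.2% and 13.3% of all genes. At day 10, 19 rose and 4 fell there, against 20.9% and 13.8%. The comparisons of days 5 and 10 share their CLK libraries.

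Scaling by library size alone raised the median of all genes in PT at day 5 by 0.47 on the log2 scale, and 83.2% of the genes called there were then higher, compared with 59.6%. In PT at day 10 the share went from 62.2% to 82.9%, in Total from 59.1% to 80.4% at day 5 and from 60.3% to 76% at day 10. Under it 18 complement genes rose and 2 fell in PT at day 5, and 18 and 1 at day 10. In Total 19 rose and 2 fell at day 5, and 20 and 2 at day 10.

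C3, the protein on which all pathways meet, showed the largest rise among the described genes with a median of at least 1 CPM in PT of CLK kidneys. Its PT levels were 4.82, 8.45 and 11 CPM in CLK, 489, 631 and 841 at day 5, and 275, 501 and 894 at day 10. Obstructed and control libraries lay far apart in both fractions, with no overlap. In Total the levels were 5.22, 9.71 and 17.2 CPM, 342, 442 and 555, and 183, 276 and 372. The rise in PT was 6.34 ± 0.23 at day 5 (adjusted p = 1.80e-14) and 6.0 ± 0.23 at day 10 (adjusted p = 3.25e-14), and that in Total 5.45 ± 0.25 and 4.80 ± 0.24. At day 10 the rise in PT exceeded that in Total by 1.24 ± 0.29 (adjusted p = 0.00321), and at day 5 by 0.87 ± 0.28 (adjusted p = 0.0687). The day 5 value passed without the female CLK Total library 2 (1.04), the female CLK PT library 1 (1.00) or the female D5UUO PT library 1 (1.01). The day 10 difference was 0.99 without the female CLK Total library 3, just under 2-fold. PT over Total was -0.27 ± 0.21 in CLK, 0.60 ± 0.20 at day 5 and 0.97 ± 0.20 at day 10. The last value reached 2-fold in 18 of 42 fits that each left out 1 library (range 0.92 to 1.12, the highest without the female D10UUO PT library 2).

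The C3 promoter is shown because C3 led the tubule fraction per length at both days and its window holds a match of the C/EBP type letters TTGCNNAA. The sequence is RefSeq's, build GRCm38.p6, from 250 bases before to 50 bases after the start, at chr17:57228087-57228386 on the minus strand. It is written 5′ to 3′ with the match, which begins 45 bases before the start, in capitals.
C3: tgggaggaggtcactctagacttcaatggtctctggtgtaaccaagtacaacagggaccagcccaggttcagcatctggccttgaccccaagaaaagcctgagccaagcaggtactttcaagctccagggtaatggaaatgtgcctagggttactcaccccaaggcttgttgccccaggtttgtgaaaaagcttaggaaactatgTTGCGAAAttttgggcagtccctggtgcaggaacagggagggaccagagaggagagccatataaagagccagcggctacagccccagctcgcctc
Promoter windows were found for 24 of the 33 genes, 27 windows in all. On either strand, TTGCNNAA was in 6 of the 27 windows and in 10.8% of all 32851 windows of that length. The NF-kB type letters (GGG, any 2 bases, TT, any base, CC) were in 3 of the 27 and in 4.79% of all windows. The interferon type letters (GAAA, any 2 bases, GAAA) were in 3 and in 3.44%, and the STAT type letters TTCNNNGAA in 4 and in 8.3%. A match of letters is a description and no evidence of binding.

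The initiator proteases C1r and C1s and the related gene C1rl lie next to each other on chromosome 6, in the order C1rl, C1ra, C1s1, and did not move together. C1ra encodes C1r. Its PT levels were 1.26, 1.72 and 2.65 CPM in CLK, 6.19, 11.4 and 12 at day 5, and 5.91, 10.2 and 34.5 at day 10. In Total they were 0.854, 1.24 and 3.43 CPM, 6.83, 7.93 and 11.9, and 5.31, 8.58 and 14. The obstructed libraries lay above all control libraries in both fractions. The rise was 2.40 ± 0.22 and 2.82 ± 0.22 in PT and 2.27 ± 0.27 on both days in Total, and PT over Total was under 2-fold in each state (0.11 ± 0.26, 0.22 ± 0.23 and 0.69 ± 0.23).

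C1s1 encodes the C1s protease and showed the largest difference between fractions in its change, of the 31 genes tested. Its PT levels were 0, 0.1 and 0.316 CPM in CLK, 3.66, 7.49 and 9.88 at day 5, and 5.04, 8.6 and 15.7 at day 10. In Total they were 1.25, 2.32 and 4.86 CPM, 11.9, 15.3 and 17.8, and 12.2, 16.9 and 27.6. In CLK every PT library lay below every Total library, and at day 10 the ranges overlapped. PT over Total was -4.32 ± 0.37 in CLK, -1.11 ± 0.24 at day 5 and -1.02 ± 0.23 at day 10. The rise was 5.72 ± 0.40 and 6.10 ± 0.40 in PT and 2.49 ± 0.20 and 2.85 ± 0.20 in Total. The difference between these rises was 3.21 ± 0.46 at day 5 (adjusted p = 5.03e-06) and 3.30 ± 0.46 at day 10 (adjusted p = 2.23e-06). At least 2.91 remained of it whichever single library was left out. On the log2(RPKM + 1) scale, where the pseudocount exceeds every PT value in CLK, the differences were -0.30 and -0.25 and were not called. The later PT over Total values sit at the 2-fold limit: they fell short of it in 11 of 42 fits at day 5 (to -0.93, without the female D5UUO Total library 2) and in 19 of 42 at day 10 (to -0.89, without the female D10UUO Total library 3). The close copy C1s2 had a median of 0 in PT in every state, and the antisense gene Gm16567, which overlaps C1s1, had no counts in any library. Since reads shared by overlapping genes may go uncounted, the lack of counts is no measure of Gm16567.

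C1rl, a C1r-like protease, went the other way. Its PT levels were 15.1, 24.3 and 32 CPM in CLK, 6.71, 11.3 and 14.1 at day 5, and 5.26, 10.8 and 23.6 at day 10. In Total they were 16.7, 19.8 and 23.8 CPM, 6.78, 10.5 and 13.5, and 4.23, 7.54 and 10.6. C1rl fell by 1.19 ± 0.25 and 1.15 ± 0.25 on the log2 scale in PT, and by 1.07 ± 0.19 and 1.44 ± 0.20 in Total. With library size as the only scaling the PT values were -0.71 and -0.72 and no longer 2-fold. In Total at day 5 the value was -0.99 without the male D5UUO Total library 2 and -0.95 without the female D5UUO Total library 1.

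The promoter windows of these 3 neighbours are shown side by side because 1 of them fell and 2 rose. They are RefSeq's, build GRCm38.p6: C1rl at chr6:124492863-124493162 and C1ra at chr6:124512371-124512670 on the plus strand, and C1s1 at chr6:124542310-124542609 on the minus strand. Capitals mark matches of TTGCNNAA, here read on the opposite strand, and in C1ra also the STAT type match TTCCCTGAA.
C1rl: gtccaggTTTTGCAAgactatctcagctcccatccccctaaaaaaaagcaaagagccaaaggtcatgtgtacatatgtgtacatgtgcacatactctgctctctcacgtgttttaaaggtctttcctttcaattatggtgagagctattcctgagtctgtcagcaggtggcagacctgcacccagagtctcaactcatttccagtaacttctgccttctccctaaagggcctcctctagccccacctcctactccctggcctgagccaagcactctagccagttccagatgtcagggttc
C1ra: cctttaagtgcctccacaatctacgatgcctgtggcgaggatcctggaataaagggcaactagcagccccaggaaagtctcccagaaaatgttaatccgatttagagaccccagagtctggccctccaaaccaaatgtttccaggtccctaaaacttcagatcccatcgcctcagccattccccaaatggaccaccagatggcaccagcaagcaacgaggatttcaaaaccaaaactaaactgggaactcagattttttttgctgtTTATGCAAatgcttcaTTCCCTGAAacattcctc
C1s1: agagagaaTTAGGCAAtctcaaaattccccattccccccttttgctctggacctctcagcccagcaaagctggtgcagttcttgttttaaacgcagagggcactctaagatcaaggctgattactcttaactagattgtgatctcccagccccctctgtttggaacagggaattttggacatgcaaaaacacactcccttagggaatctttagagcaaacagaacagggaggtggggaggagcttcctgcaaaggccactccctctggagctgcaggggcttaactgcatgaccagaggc
All 3 windows hold the C/EBP type letters, the gene that fell as well as those that rose. A second C1s1 start, at chr6:124542272-124542571, has a window without a match.

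**Figure D3:**
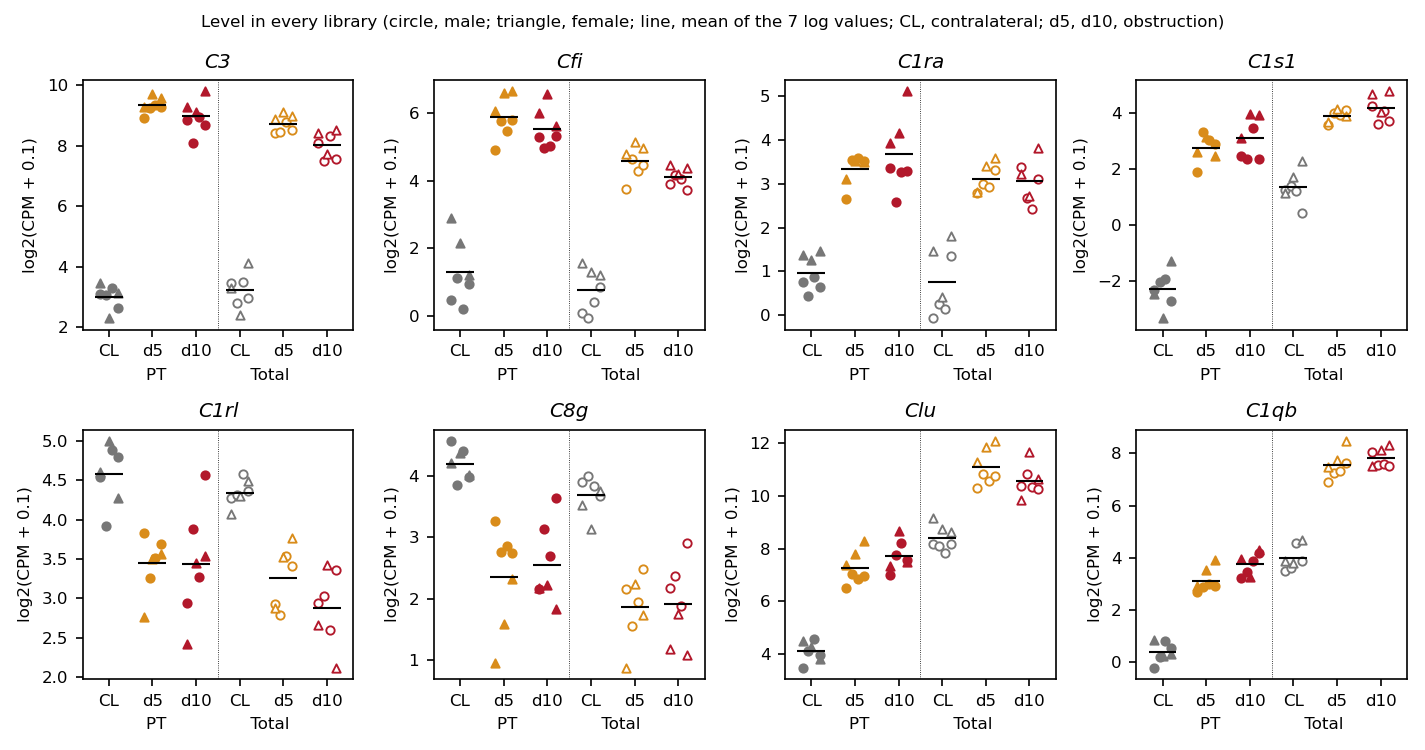
Level of 8 complement genes in every library, as log2(CPM + 0.1) (y axis), by fraction and kidney state (x axis); filled symbols are PT, open symbols Total, circles male, triangles female and lines means of 7 libraries. C3 and C1ra rise in both fractions, Cfi rises in both and ends higher in PT, C1s1 starts far lower in PT, C1rl and C8g go down, and Clu and C1qb stay far below their Total levels in PT.

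The genes of the next substrates of C1s, C2 and C4, also had PT over Total differences at or above the lowest tubule marker. C2 stood at 6.25, 12 and 22.3 CPM in PT of CLK kidneys, 15.7, 22.4 and 32.3 at day 5, and 16.3, 18 and 31.1 at day 10. In Total it stood at 4.39, 7.86 and 11.6 CPM, 6.87, 8.7 and 12.2, and 6.85, 8.14 and 12.5. At both days every PT library lay above every Total library. PT over Total was 0.75 ± 0.17 in CLK, under 2-fold, 1.36 ± 0.17 at day 5 (adjusted p = 1.12e-08) and 1.42 ± 0.17 at day 10 (adjusted p = 4.25e-09). The change with obstruction in PT was just under 2-fold (0.97 ± 0.16, adjusted p = 2.64e-05, and 0.89 ± 0.16), and that in Total 0.33 ± 0.18 and 0.24 ± 0.18. With library size as the only scaling the PT changes were 1.43 and 1.32 and passed. The day 5 change also passed without male CLK PT library 2 (1.07), male D5UUO PT library 1 (1.03), female CLK PT library 3 (1.08) or female D5UUO PT library 1 (1.03).

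C4b encodes C4. Its PT levels were 0.442, 1.05 and 5.76 CPM in CLK, 4.63, 8.14 and 11.2 at day 5, and 6.04, 10.3 and 27.9 at day 10. In Total they were 0.311, 1.12 and 4.09 CPM, 2.24, 4.17 and 5.23, and 3.05, 6.16 and 14. C4b rose by 2.84 ± 0.35 and 3.31 ± 0.36 in PT and by 1.71 ± 0.45 and 2.51 ± 0.45 in Total. PT over Total at day 5 (1.01 ± 0.37, adjusted p = 0.0212) sat at the 2-fold limit and missed it with RLE factors (0.97) and without the male D10UUO Total library 3 (1.00). At day 10 it was 0.73 ± 0.36, and 1.33 and called without the female D10UUO Total library 3. The near-identical copy C4a makes the assignment of reads uncertain. C4a had 63 counts over the 7 PT libraries of CLK kidneys and 0 at day 5, at least 3.36-fold lower by the floor of 3 counts per library. At day 10 it had 41 counts, at least 1.66-fold above day 5, and neither day 10 difference was called.

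Factor B of the alternative pathway was the complement gene higher in PT in all 3 states. Cfb stood at 7.33, 14.5 and 23.4 CPM in PT of CLK kidneys, 7.49, 11.4 and 23.8 at day 5, and 3.42, 12.4 and 25.1 at day 10. In Total it stood at 2.21, 8.14 and 10.1 CPM, 3.29, 5.55 and 10.4, and 1.53, 2.17 and 7.05. The ranges of the fractions overlapped in each state. PT over Total was 1.10 ± 0.33, 1.02 ± 0.33 and 2.13 ± 0.35. The CLK value was 0.95 without male CLK PT library 2, 0.92 without female CLK Total library 3 and 0.94 without female CLK PT library 3. The day 5 value was 0.95 without female D5UUO PT library 2 and 1.00, just short of the limit, without female D5UUO Total library 1. With library size as the only scaling the CLK and day 5 values were 0.79 and 0.77, and neither was called. With RLE factors the day 5 value was 0.97. The changes of Cfb with obstruction were -0.32 ± 0.33 and -0.22 ± 0.33 in PT and -0.27 ± 0.28 in Total at day 5, and none was called. It fell by 1.21 ± 0.29 on the log2 scale in Total at day 10, a value of -0.87 with the Lars2 covariate and -0.86 with library size alone, both under 2-fold. Cfb and C2 are neighbours on chromosome 17 and both overlap the read-through gene Gm20547 on the same strand, which had no counts in any library. Reads shared by overlapping genes may go uncounted, so the lack of counts is no measure of Gm20547.

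Properdin (Cfp), which stabilises the C3 convertase and is made by leukocytes, was low in PT throughout. It stood at 0, 0.0555 and 0.418 CPM in PT of CLK kidneys, 0.579, 1.01 and 1.77 at day 5, and 1.26, 1.76 and 3.3 at day 10, against 0.524, 1.06 and 1.71, 11.4, 20.6 and 41.6, and 23, 29.7 and 61.3 in Total. The fractions did not overlap in any state, and PT over Total was -3.80 ± 0.41, -4.44 ± 0.24 and -4.07 ± 0.23. Factor D (Cfd), the adipocyte protease that cuts factor B, had 7 counts in all PT libraries together.

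The recognition subunits of C1q, known as products of macrophages, were abundant in Total and scarce in PT. C1qb stood at 0.75, 1.14 and 1.67 CPM in PT of CLK kidneys, 6.33, 7.44 and 14.9 at day 5, and 9.12, 14.7 and 19.3 at day 10. In Total it stood at 11.2, 14.4 and 25.4 CPM, 120, 177 and 358, and 182, 195 and 321. Every PT library lay below every Total library in each state. C1qa and C1qc, its neighbours on chromosome 4, followed the same order, with PT medians of 0.702 and 0.555 CPM in CLK, 5.16 and 3.38 at day 5, and 10.3 and 3.98 at day 10, and Total medians of 7.62 and 4.8, 95.5 and 59.5, and 122 and 76.9. PT over Total ran from -3.48 ± 0.39 (C1qa in CLK) to -4.47 ± 0.24 (C1qb at day 5). In PT the 3 genes rose by 2.65 to 2.91 at day 5 and by 3.27 to 3.70 at day 10, and in Total by 3.34 to 3.56 and 3.82 to 4.01.

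Macrophage markers moved with these genes. The 15 markers (Lyz2, Ctss and Cd14 the most abundant) summed to 11.5 to 18 CPM in PT of CLK kidneys, 119 to 205 at day 5 and 167 to 384 at day 10, with none at 0 in a whole group. In Total the sums were 89.7 to 204, 981 to 1523 and 1470 to 2653 CPM. In PT 14 of the 15 rose at each day, and 15, 14 and 14 were lower in PT than in Total in the 3 states. The exception after obstruction was Cd14 (0.32 and 0.60), which tubule cells can also express. The part of the macrophage signal in the C1q, Cfp, C5ar1 and C3ar1 results was not tested. C3, Cfi, C2 and Cfb had PT over Total values of 0.60, 1.35, 1.36 and 1.02 at day 5. Of the macrophage markers Cd14 then lay at 0.32 and the 14 others between -5.00 and -2.23. A macrophage part in the C3, Cfi, C2 and Cfb values was not tested either.

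The anaphylatoxin receptors, which sense C3a and C5a on leukocytes, followed C1q. C3ar1 stood at 0, 0.132 and 0.333 CPM in PT of CLK kidneys, 0.422, 0.731 and 1.21 at day 5, and 0.878, 1.3 and 2.63 at day 10, and at medians of 2.36, 22.6 and 34.5 CPM in Total. PT over Total was -3.97 ± 0.37, -4.72 ± 0.29 and -4.48 ± 0.28, and the rise in PT 2.26 ± 0.46 and 3.19 ± 0.45. C5ar1 had 3 counts in all PT libraries of CLK kidneys, a 38.8-fold lower level than in Total (counting interval 12.9 to 191). Its PT medians were 0.369 CPM at day 5 and 1.14 at day 10, 16.3-fold (interval 5.31 to 81.7) and 42.8-fold (interval 14.4 to 210) above CLK. In Total its medians were 0.809, 10.6 and 14.5 CPM. C5ar2 had 2, 10 and 24 counts over the PT libraries of the 3 states and a median of 2.2 CPM in Total at day 10.

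Factor I, the protease that inactivates C3b and C4b, was the regulator that changed most in the tubule fraction. Cfi levels were 1.05, 2.07 and 7.44 CPM in PT of CLK kidneys, 30, 56.1 and 100 at day 5, and 31.2, 40.1 and 95.3 at day 10. The Total levels were 0.857, 1.73 and 2.89 CPM, 13.6, 24.8 and 35.5, and 13.1, 17.8 and 22. The obstructed and control libraries did not overlap in either fraction, and at day 10 every PT library lay above every Total library. The rise was 4.56 ± 0.26 (adjusted p = 1.30e-11) and 4.17 ± 0.26 in PT and 3.82 ± 0.18 and 3.35 ± 0.17 in Total. Between the fractions the difference, PT over Total, was 0.63 ± 0.22 in CLK, under 2-fold, and 1.35 ± 0.19 and 1.49 ± 0.19 at days 5 and 10. The rises in the fractions did not pass as different (0.72 ± 0.29, adjusted p = 0.193, and 0.86 ± 0.29, adjusted p = 0.0621), though the day 10 value passed without the female CLK PT library 1 (1.11).

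The soluble regulators C1 inhibitor and clusterin were Total genes. Serping1, C1 inhibitor, stood at 0.75, 1.17 and 1.64 CPM in PT of CLK kidneys, 2.95, 6.13 and 12 at day 5, and 6.35, 11.4 and 28.3 at day 10. The Total levels were 8.61, 23.2 and 54.9 CPM, 67, 104 and 185, and 136, 172 and 340. Serping1 differed between the fractions, PT over Total, by -4.55 ± 0.35, -4.17 ± 0.32 and -3.89 ± 0.31. It rose in both fractions, by 2.47 ± 0.30 and 3.48 ± 0.31 in PT. Fibroblast and mesenchymal markers, cells known to express Serping1, rose beside it: 10 and then 11 of the 11 tested rose in PT, and their sum over 12 genes (Col1a2, Col1a1 and Col3a1 the most abundant, none at 0 in a whole group) went from 8.05 to 15.7 CPM in CLK to 38.8 to 69.5 and 62.5 to 110. In Total the sums were 121 to 218, 932 to 1287 and 953 to 2440 CPM. Their part in the Serping1, C1s1 and C7 values was not tested. At day 5 the 12 markers had PT over Total values from -4.74 to -3.33, below the -1.11 of C1s1.

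Clusterin (Clu), which binds late complement complexes, was the most abundant of the genes in Total. Its levels there were 231, 292 and 571 CPM in CLK, 1265, 1824 and 4377 at day 5, and 921, 1319 and 3269 at day 10. In PT they were 11, 17.3 and 23.9 CPM, 90.2, 131 and 314, and 130, 192 and 404. PT lay below Total throughout, by -4.32 ± 0.26, -3.85 ± 0.26 and -2.86 ± 0.24. The rise in PT was 3.21 ± 0.25 and 3.64 ± 0.26, and that in Total 2.70 ± 0.23 and 2.22 ± 0.22. At day 10 the rise in PT exceeded that in Total by 1.47 ± 0.32 (adjusted p = 0.0022), and at day 5 by 0.48 ± 0.32 (adjusted p = 0.585). C1s1 alone of the 31 genes tested passed this test of the difference at day 5, and C1s1, C3 and Clu at day 10, where 4.27% and 5.76% of all genes did.

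**Figure D4:**
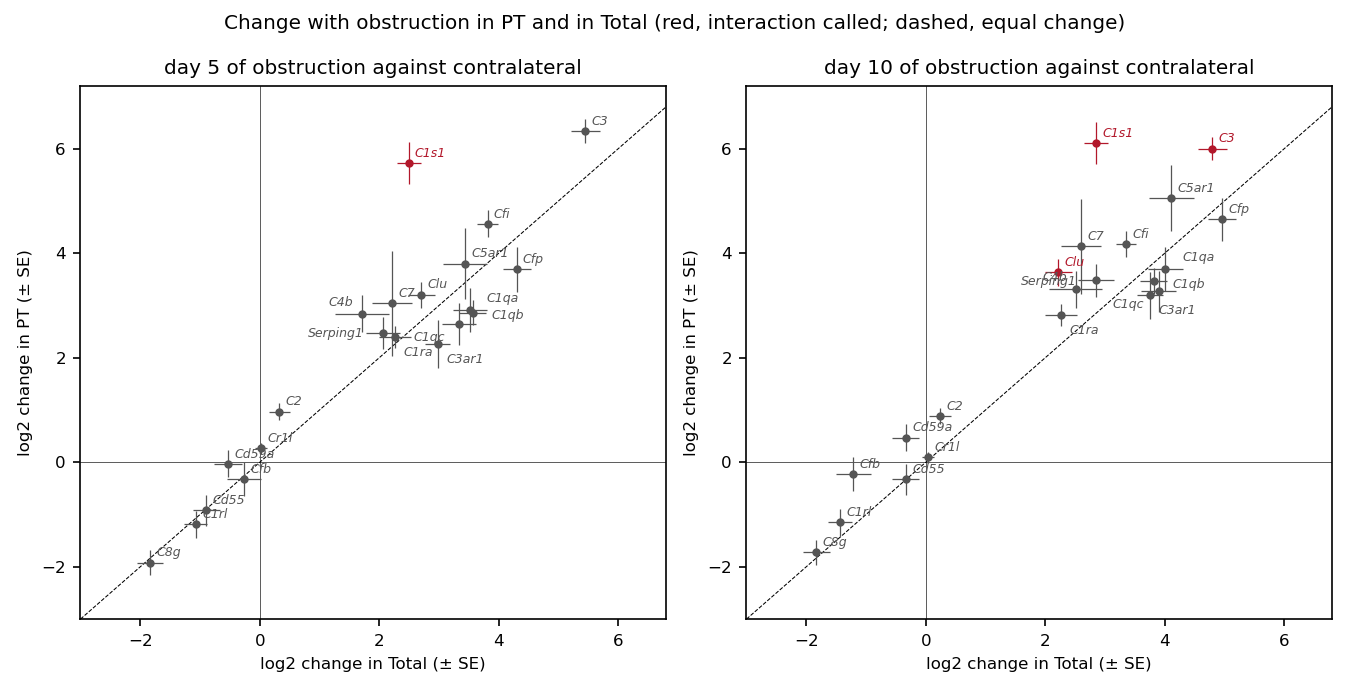
Log2 change with obstruction in PT (y axis, ± SE) against that in Total (x axis, ± SE) for the described complement genes, at day 5 (left) and day 10 (right); both days share their control libraries. The dashed line marks equal change and red marks genes whose 2 changes passed the test of their difference, C1s1 at day 5 and C1s1, C3 and Clu at day 10; C8g and C1rl lie at the lower left and C3 at the upper right.

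No change of a surface regulator with obstruction was called. Cr1l encodes Crry, which speeds the decay of C3 convertases on rodent cells and helps factor I. It stood at 21.6, 25.7 and 29.2 CPM in PT of CLK kidneys, 23.1, 28.9 and 37.5 at day 5, and 24.1, 26.3 and 31.2 at day 10, and at medians of 25.1, 24.7 and 26.1 in Total. Its differences between fractions and with obstruction reached at most 0.27 ± 0.11 (PT at day 5, adjusted p = 0.0366), under 2-fold. Cd59a, which blocks the membrane attack complex, stood at 13.8, 42 and 61.5 CPM, 29.5, 34.8 and 44.4, and 22.8, 48.3 and 90.2 in PT, and none of its differences between fractions, states or sexes was called (-0.03 ± 0.26 and 0.47 ± 0.26 with obstruction in PT). The close copy Cd59b had PT medians of 2.01, 1.77 and 3.02 CPM. Cd55, the decay-accelerating factor, stood at 0.66, 6.27 and 10.8 CPM in PT of CLK kidneys, 0.537, 1.48 and 3.21 at day 5, and 1.01, 3.28 and 7.13 at day 10. Its change at day 5 was -0.92 ± 0.30 in PT and -0.89 ± 0.23 in Total, under 2-fold. It passed in PT without the female CLK PT library 2 (-1.06) or the female D5UUO PT library 3 (-1.08), and in Total without the male D5UUO Total library 3 (-1.0) or the female D5UUO Total library 1 (-1.02). Its spread followed the sexes as described below. Cd46 had 7 counts in PT in each state and medians of 0.407 to 0.636 CPM in Total.

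Of the described terminal components C8g had PT over Total differences in the range of tubule markers and C7 did not. C8g, the gamma chain of C8, stood at 14.3, 18.3 and 23.6 CPM in PT of CLK kidneys, 1.83, 6.62 and 9.52 at day 5, and 3.44, 4.58 and 12.4 at day 10. The Total levels of C8g were 8.7, 13.4 and 15.8 CPM, 1.73, 3.75 and 5.49, and 2.01, 3.56 and 7.36. Obstructed libraries lay below all control libraries in both fractions. C8g fell by 1.92 ± 0.24 and 1.72 ± 0.24 on the log2 scale in PT and by 1.83 ± 0.22 on both days in Total, and PT over Total was 0.55 ± 0.22, 0.43 ± 0.23 and 0.69 ± 0.23. C7 was a Total gene, with medians of 0.934, 4.27 and 6.41 CPM there and of 0, 0.0938 and 0.468 CPM in PT. It had 2 counts in PT of CLK kidneys, 58.1-fold below Total (interval 15.7 to 486), and was 10.7-fold (interval 2.66 to 93.4) and 23.2-fold (interval 6.15 to 196) higher at days 5 and 10. Its PT call at day 5 was lost without the male D5UUO PT library 2 (2.29, adjusted p = 0.0747). Hc, which encodes C5, had 0 counts in PT of CLK kidneys and medians of 0.691 and 0.371 CPM after obstruction, at least 3.82-fold and 1.95-fold higher by the floor of 3 counts per library. C6 had 0, 11 and 11 counts in PT and C9 26, 29 and 57.

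The other low genes were C4bp, Masp1, Masp2, Cr2 and Vtn. C4bp, the C4b-binding protein, rose in PT (4.21 ± 0.66 and 3.49 ± 0.67) from a median of 0 to 1.88 and 0.97 CPM, and in Total (2.76 ± 0.46 and 2.82 ± 0.46). Masp1, a lectin pathway protease, rose in PT (4.92 ± 1.00 and 5.27 ± 0.98) to medians of 0.517 and 0.637 CPM, and for neither gene was a difference between the fractions called after obstruction. Masp2, which overlaps Tardbp on the other strand, had 14, 1 and 2 counts in PT. Cr2, the B cell receptor CD21, had 6, 4 and 7 counts in PT, and fell in Total (-1.21 ± 0.40 and -1.17 ± 0.40). Vtn, vitronectin, had 0, 0 and 1. These genes are known as liver products, apart from Cr2. Of 8 hepatocyte markers, Cps1 was at 0 in every PT library and Ahsg in every PT library of CLK and day 10 kidneys. Their sum in PT was 30.6 to 69.5 CPM in CLK, 88.6 to 330 at day 5 and 85.7 to 1331 at day 10, led by the fibrinogen genes Fgg and Fgb. Of the 4 markers tested in PT, Fgg and Fgb rose on both days, Apoa2 fell by 1.64 and 2.40 on the log2 scale, and Alb, named after its values were seen, fell by 4.28 and 4.56.

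Between days 5 and 10 none of the tested genes passed edgeR's test, 0 of 26 in PT and 0 of 30 in Total. Of all genes 0.422% were higher and 0.0201% lower at day 10 in PT, and 0.352% and 0.0417% in Total. At an unadjusted p under 0.05 there were 8 in PT and 12 in Total. DESeq2 called 1 in each, Serping1 in PT (1.02) and Cfd in Total.

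Of 28 further complement genes from a list of other subunits, lectins and receptors, 12 were tested in PT. At day 5, 3 rose and 3 fell (18.2% and 12.4% of all genes), and at day 10, 4 rose and 2 fell (19.7% and 12%). In Total 5 of 16 tested rose and 3 fell at day 5 (19.2% and 13.3% of all genes), and 7 rose and 2 fell at day 10 (20.9% and 13.8%). Of 18 tested between the fractions 1, 1 and 2 were higher in PT in the 3 states and 9 were lower in each, where 1.16%, 4.02% and 7.07% of all genes were higher and 22.9%, 23.8% and 23% lower. The mannose-binding lectins fell in PT, Mbl1 by 1.29 ± 0.39 and 1.23 ± 0.39 and Mbl2 by 4.28 ± 0.55 and 4.69 ± 0.55 on the log2 scale. Their PT medians were 5.9, 2.44 and 1.67 CPM for Mbl1 and 1.67, 0.0527 and 0.0548 for Mbl2. Mbl2 was higher in PT than in Total in CLK (2.15 ± 0.48). The integrin chains Itgam and Itgb2 of complement receptor 3, found on macrophages, rose in PT (2.09 ± 0.52 and 2.05 ± 0.41 at day 5) and were lower there than in Total in all states. C8a, the alpha chain of C8, was lower in PT than in Total in CLK (-3.06 ± 0.58), and fell in PT at day 5 (-3.0 ± 0.90). At day 10 Cd93, an endothelial and myeloid receptor, rose (1.95 ± 0.31).

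Males and females differed in a few of the genes. Of 26 tested genes 5 differed in PT of CLK kidneys, where 4.13% of all genes did. In PT at day 5 none did (background 0.851%; 8 at an unadjusted p under 0.05, and C8g by DESeq2), and at day 10, 2 did (background 2.22%). In Total of CLK kidneys 3 of 30 differed (background 2.76%). With library size as the only scaling the share of genes higher in females among all genes called went from 32.3% to 22% in PT at day 5 and from 42.2% to 52.5% in Total of CLK. Cd55 in PT stood at 8.04 ± 2.01 CPM in males and 1.16 ± 0.431 in females of CLK (SD, n = 4 and 3), 2.45 ± 1.03 and 1.06 ± 0.479 at day 5, and 5.11 ± 1.66 and 1.23 ± 0.318 at day 10. Males and females did not overlap in CLK or at day 10. Females were lower by -2.82 ± 0.44 in CLK (adjusted p = 0.000292) and by -2.08 ± 0.43 at day 10 (adjusted p = 0.00848), and the day 5 value of -1.18 ± 0.43 was not called (adjusted p = 0.284). The day 10 call was lost without the female D10UUO PT library 3 (-2.01, adjusted p = 0.066). In Total of CLK kidneys the difference was -1.35 ± 0.33 (adjusted p = 0.016), and it was lost in 4 of 21 fits that left out 1 library (range -1.45 to -1.24).

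Factor I went the other way. Cfi in PT stood at 1.56 ± 0.468 CPM in males and 4.67 ± 2.63 in females of CLK, 46.2 ± 12 and 87.9 ± 18.6 at day 5, and 35.7 ± 4.53 and 69.5 ± 23.5 at day 10 (SD, n = 4 and 3). Every female library lay above every male library in each state. In CLK the difference was 1.56 ± 0.35 (adjusted p = 0.00784), and it was lost without the female CLK PT library 1 (1.06, adjusted p = 0.109). After obstruction it was 0.94 ± 0.30 on both days and was not called. In Total of CLK it was 1.07 ± 0.26 (adjusted p = 0.0156), lost in 3 of 21 fits that left out 1 library. C2 was higher in females of CLK (1.01 ± 0.22, adjusted p = 0.0071, 17.2 ± 4.7 against 8.51 ± 2.49 CPM), a call lost without the male CLK PT library 1 (0.89) or 3 (0.97) or the female CLK PT library 3 (0.79). C4b was lower in females (-2.42 ± 0.56, adjusted p = 0.0105, 0.469 ± 0.0302 against 2.55 ± 2.17 CPM), lost without the female CLK PT library 2 (-2.41, adjusted p = 0.0519) or 3 (-2.37, adjusted p = 0.0569). Cfp was higher in females of CLK, on 14 counts against 1. At day 10 C1ra was higher in females (1.33 ± 0.27, adjusted p = 0.00848), lost without the female D10UUO PT library 3 (0.86). With only the groups compared in the fit, the CLK calls of Cfi, C2 and C4b in PT were lost (adjusted p = 0.0988, 0.0839 and 0.0837). In Total of CLK the third gene was C4a, lower in females (-3.06 ± 0.84). No complement gene passed the test of a sex difference in the change with obstruction (0 of 26 at both days by edgeR and by DESeq2; 5 and 2 at an unadjusted p under 0.05; background 0.502% and 0.208%).

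**Figure D5:**
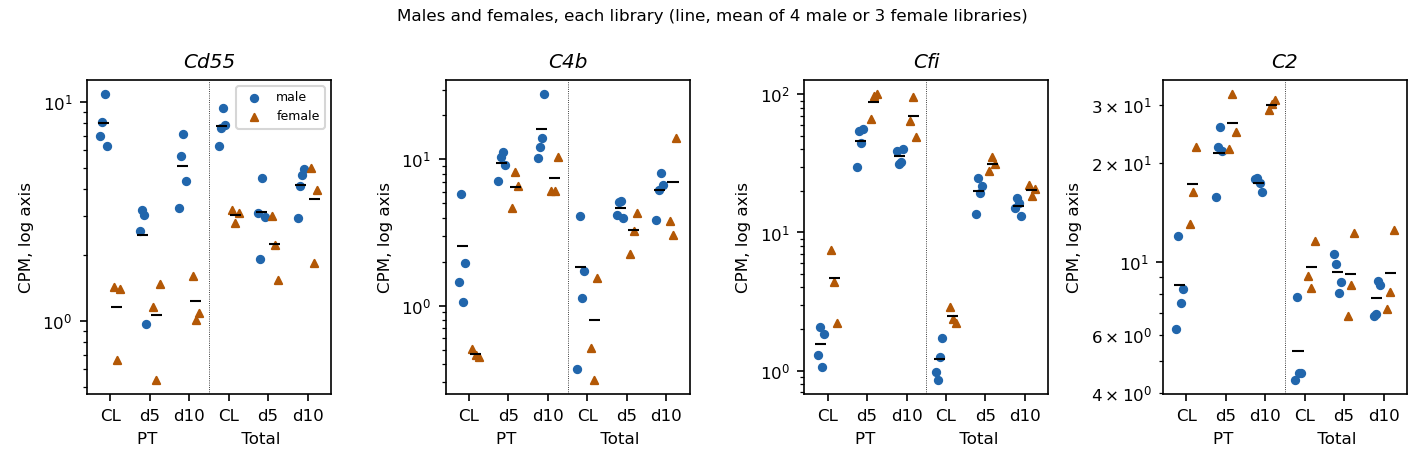
CPM (y axis, log scale) of Cd55, C4b, Cfi and C2 in each library, by fraction and kidney state (x axis), with males in blue circles, females in orange triangles and lines at the means of 4 male or 3 female libraries. In PT of contralateral kidneys Cd55 and C4b are lower and Cfi and C2 higher in females; no sex difference in the change with obstruction was called.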

How the data were processed

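The 42 libraries were sequenced from anti-GFP pull-down (PT) or Total kidney RNA. Per the submitters' processing notes, STAR 2.0.4b, Subread and featureCounts 1.4.5 were used. The genome build, annotation and strand setting are not given in the sources used here. The authors deposited raw counts per gene symbol and RPKM values made from them. In each of the 28069 genes with counts, counts and RPKM gave 1 implied length in all libraries within a relative spread of 0.000497.

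Counts were tested with edgeR 4.0.16 (R 4.3.3, limma 3.58.1): TMM factors, filterByExpr by group, a quasi-likelihood fit with a mean per group, sexes averaged equally, Benjamini-Hochberg adjustment over all genes tested, in PT (14932 genes), Total (16782) or both (17110). Printed CPM use TMM factors over all 42 libraries. The deposited RPKM served only for levels between genes and for limma on log2(RPKM + 1) or log2(RPKM + 0.1) as alternatives, with a mean of at least 0.5 in a group. DESeq2 1.42.0 was another alternative. Where a side had no counts, a fold is a bound against 3 counts in a library of mean size, and where it had 1 to 3 counts, a ratio with a 95% interval for counting error only. The scripts were tested on simulated data.

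The members and gene lists were chosen with earlier results of these data known. A gene whose mean reached 5 CPM in some state and fraction was described on its own. A gene outside that rule is named where a count includes it. Genes with near copies (C4a and C4b, C1ra, C1s1, Cd55, Cd59a, Cr1l and Cr2) are uncertain, since reads of copies may be split. Same-numbered libraries of a sex deviated together between PT and Total in CLK (r = 0.347 to 0.626 over 7 pairs) and at day 10 (0.141 to 0.797), but not in all pairs at day 5 (-0.187 to 0.674). Across states, CLK Total libraries did so with D10UUO Total (0.124 to 0.417) and D10UUO PT (0.1 to 0.41). In no other combination of states did all pairs do so, as with CLK PT and D10UUO PT (-0.222 to 0.51). The labels do not say what the numbers share. A further complement gene counted among the other subunits, lectins and receptors is not reported here by name.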

Additional observations from a re-analysis of the deposited data

Results flagged for a closer look

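A library far from the other 3 of its group of 4 males was found in 12 of 126 groups of the described genes. The nominal rate of about 1 in 20 is no measure of chance here. The groups share libraries, and for Cfp and C7 the other libraries were at 0. In Total at day 10, library 3 had 58.5 CPM of C1qa (others 122 to 135), 34.3 of C1qc (others 73.2 to 79.2) and 54.6 of C3ar1 (others 27 to 31.7). It was also the library of lowest Lars2 level, 1714 CPM (others 9230 to 24550). A link between that level and these values was not tested. In the same group library 1 had 267 CPM of C1qb (others 182 to 195), and library 2 had 1806 CPM of Clu (others 1231 to 1319). C1ra stood at 2.45 CPM in CLK Total library 4 (others 0.854 to 1.1), at 5.91 in D10UUO PT library 2 (others 9.54 to 10.2) and at 6.19 in D5UUO PT library 1 (others 11.4 to 12). C1s1 stood at 11.2 CPM in D10UUO PT library 3 (others 5.04 to 5.47), and C2 at 7.86 in CLK Total library 2 (others 4.39 to 4.61). In PT of CLK, library 3 alone had Cfp (0.0555 CPM, 1 count) and library 2 alone had C7 (0.0738 CPM).

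The change with obstruction passed the test of a difference between PT and Total for C1s1 at day 5 (3.21) and day 10 (3.30), C3 at day 10 (1.24) and Clu at day 10 (1.47), by edgeR's quasi-likelihood test with adjusted p = 5.03e-06, 2.23e-06, 0.00321 and 0.0022. All 4 values are larger in PT. Of all genes called in this test, 70.8% at day 5 and 81.3% at day 10 also had the higher change in PT. The direction is therefore not particular to complement genes.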

How the results depend on the processing

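Counts of complement genes called moved by over 1.5 times as follows. PT above Total in CLK (1 gene) came to 0 with library size only or limma on either log2(RPKM) scale, and to 4 with no fold minimum. At day 5 (4) it came to 2 with RLE factors, library size only, DESeq2, log2(RPKM + 0.1) or only the groups compared, and to 1 with log2(RPKM + 1). At day 10 (3) it came to 7 with no fold minimum. PT below Total in CLK (14) came to 5 with log2(RPKM + 1). Rises in PT (17 and 17) came to 10 and 9 with a minimum of 5 CPM in 3 libraries, which tests fewer genes, and at day 5 to 11 with log2(RPKM + 1). Falls in PT (3 and 2) came to 1 with both RPKM scales on each day and, at day 10, to 1 with library size only. Falls in Total (4 and 4) came to 2 with library size only on both days. At day 5 they came to 2 with the 5 CPM minimum or without the 3 Total libraries of lowest Lars2 level (an alternative chosen after seeing the data), and to 1 with both RPKM scales. At day 10 they came to 1 with log2(RPKM + 1) and 2 with log2(RPKM + 0.1). Day 10 against day 5 (0) gave 1 higher in PT with DESeq2 or the Lars2 covariate and 1 lower in Total with DESeq2. Differences between the changes in PT and Total (1 and 3) came to 8 and 10 with either RPKM scale. Sex differences in PT of CLK (5) came to 0 with log2(RPKM + 1) and 1 with only the groups compared. At day 5 (0) they came to 1 with library size only, DESeq2, either RPKM scale, only the groups compared or the Lars2 covariate. At day 10 (2) they came to 1 with log2(RPKM + 1) and 0 with only the groups compared, and in Total of CLK (3) to 0 and 1 with log2(RPKM + 1) and log2(RPKM + 0.1). The cause was not tested.

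With 1 library left out the ranges were 0 to 1, 3 to 4 and 3 to 5 for PT above Total in the 3 states, and 14 to 16, 14 to 16 and 13 to 15 below. Rises were 16 to 18 and 16 to 17 in PT and 18 to 19 and 18 to 20 in Total at days 5 and 10, and falls 3 to 4 and 2 to 2, and 3 to 5 and 3 to 6. Differences between the fractions' changes were 1 to 2 and 2 to 4, sex differences 3 to 5, 0 to 0 and 0 to 3 in PT and 0 to 3 in Total, and all others 0.

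The sign of the difference between the changes in PT and Total reversed in 12 values, all with limma on RPKM. With log2(RPKM + 1) at days 5 and 10 these were -0.30 and -0.25 for C1s1, -1.87 and -2.08 for C5ar1, -1.06 and -1.04 for Serping1, and -1.18 and -1.18 for C7. With log2(RPKM + 0.1) they were -2.18 and -1.89 for C5ar1 and -1.80 and -1.26 for C7. The C1s1 values did not pass limma's test (adjusted p = 0.543 and 0.548). Those of C5ar1, Serping1 and C7 passed it in this opposite direction, with adjusted p from 6.12e-07 to 0.0479.

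With the replicate block PT above and below Total gave 1 and 15, 4 and 15, and 3 and 14 genes, rises and falls 17 and 3 and 17 and 2 in PT and 19 and 4 and 19 and 5 in Total, and the pairing changed no call of a described gene. Sex contrasts could not be fitted with the block. Depth limits C5ar2, C6, Cd46, Cfd, Cr2, Masp2 and Vtn in PT, where counts were too few to test a change.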

Other observations

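Cpn1, the catalytic subunit of the carboxypeptidase that inactivates the anaphylatoxins, was noticed after its values were seen. In PT it stood at 8.77, 29.3 and 309 CPM (lowest, median and highest of 7 libraries) in CLK, 412, 499 and 597 at day 5, and 12.7, 45 and 416 at day 10. In Total it stood at 5.04, 15.8 and 176 CPM, 132, 184 and 272, and 4.3, 9.74 and 168. In PT every day 5 library lay above every CLK library, and the day 10 range reached into that of day 5. The change in PT at day 5 was 2.29 ± 1.00 and did not pass edgeR's quasi-likelihood test (adjusted p = 0.0646).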
